A study of Chlorocebus sabaeus with 10 samples.

Results

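The imprinted DLK1-DIO3 cluster is a large group of miRNA genes that mammals transcribe from the maternal chromosome, and its miRNAs were described here in vervet monkey liver. The members were chosen by the numbers in their names. Every mature miRNA of the deposited small RNA count table that bears 1 of 47 numbers assigned to the cluster was taken, which gave 90 names of 2588 in all. Livers came from 10 female vervet monkeys (Chlorocebus sabaeus), age-matched by the study's account, of which 5 were given a high fructose (HFr) diet and 5 remained on the chow that all had eaten before. The library columns of the table bear running numbers that match no animal's label, so HFr and chow livers could not be compared. All values below are the authors' total count per miRNA over all libraries, irrespective of diet. They have no replicates and no spread between animals. A deeper library adds more to a total than a shallow one, and as how much each of them added is not given here, the totals may in effect rest on fewer than 10 animals.

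In this locus the chromosome inherited from the father expresses the protein-coding genes DLK1, RTL1 and DIO3, whereas the chromosome inherited from the mother expresses long noncoding RNAs (MEG3, MEG8 and MEG9, also called MIRG), a series of small nucleolar RNAs (snoRNAs) and the miRNA hairpins. The hairpins are cut from these long transcripts, and each can yield a mature miRNA from its 5p and from its 3p arm. The cluster is best known from embryo, placenta, brain and muscle, and its expression is usually low in adult liver. In mice, deletion of the stretch from miR-379 to miR-410 disturbs the metabolic adaptation of the newborn liver. The vervet gene table used here (RefSeq, assembly mChlSab1.0.hap1) lists DLK1, RTL1 and DIO3 in this order. Between RTL1 and DIO3 it holds 46 genes, of which 38 are snoRNAs and 0 are protein-coding. It lists 0 genes of type miRNA, so positions of the hairpins are not given, and their order below is that of the human locus, used as background. Mature sequences were not used here.

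Together the cluster miRNAs had 10101 reads of the 2043164 counted when each name was taken once, or 0.494% of the miRNA pool (95% Wilson interval 0.485 to 0.504%). This was a small part of a pool led by the hepatocyte miRNA miR-122-5p, which had 922528 reads, 91.3 times as many as the whole cluster. Reads carry no molecular identifiers, so this and all other intervals cover counting error alone. Although the cluster's share was small, its detection was broad. At least 1 read was found for 73 of the 90 names (81.1%), against 26.3% of all names in the table. At least 10 reads were found for 52 members (57.8%), compared to 15.6% of all names, and at least 100 reads for 23 members (25.6%), compared to 7.88%. The median over all 90 members was 14 reads, and over the other 2498 names, of which 1891 had no reads, it was 0 reads. Among names with reads the median was 35 for members and 15 for the others, and the upper quartile 140 and 188. The members were intermediate in abundance. Only 3 exceeded 1000 reads, 20 had at least 100 but fewer than 1000 reads, 29 had 10 to 99 and 21 had 1 to 9, of which 8 rested on 1 read. The most abundant member ranked 62nd among all miRNAs of the liver. If 10% of all reads had been drawn, 54.5 of the 73 members with reads would be expected to be seen, and with 50% of reads 67.6. Over all 680 names with reads, the same draws would be expected to show 451.1 and 605.7. These draws use only the reads at hand, and whether more depth would add members was not tested.

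**Figure D1:**
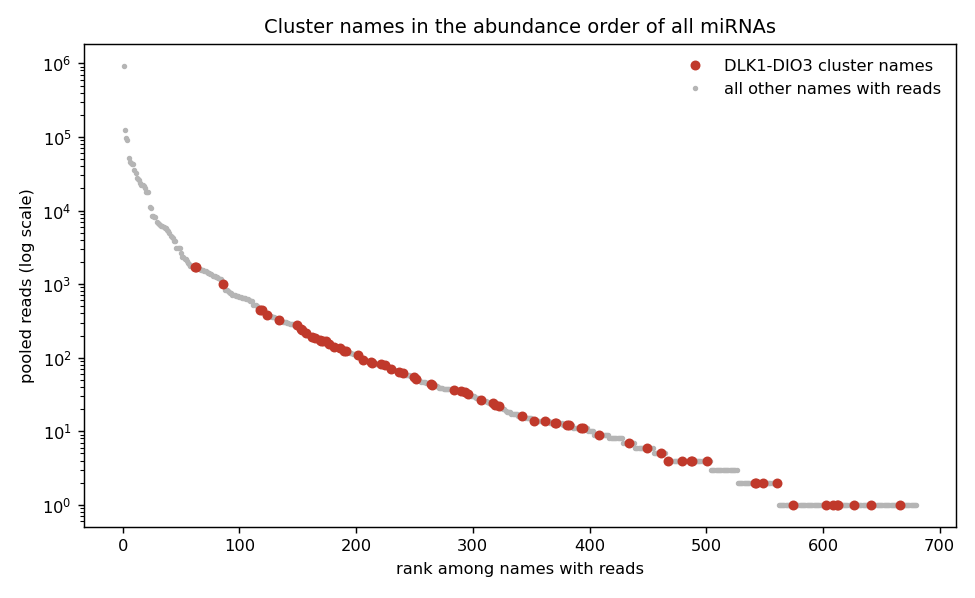
Pooled reads of each miRNA name with reads (vertical, log scale) against its rank among all 680 such names (horizontal). The 73 cluster names lie between 1 and 1731 reads, and none is among the 61 most abundant miRNAs.

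Reads within the cluster were concentrated in few miRNAs. miR-369-3p, which in human cells is known to bind the AU-rich element of TNF mRNA, had 1731 reads (17.1% of the cluster, interval 16.4 to 17.9%). miR-379-5p, which in mouse liver is induced by glucocorticoids and acts on triglyceride secretion, had 1712 reads (16.9%, interval 16.2 to 17.7%). These 2 did not differ beyond counting error (ratio 1.01, exact binomial interval 0.945 to 1.08). miR-411-5p, whose hairpin follows that of miR-379, had 1013 reads (10.03%, interval 9.46 to 10.6%), so that miR-379-5p exceeded it by 1.69-fold (interval 1.56 to 1.83). The 3 together held 44.1% of the cluster's reads, the first 5 held 53.0% and the first 10 held 67.5%.

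A step of 2.26-fold (interval 2.02 to 2.53) separated miR-411-5p from the next group. miR-487b-3p had 448 reads (4.44% of the cluster, interval 4.05 to 4.85%) and miR-409-3p, known to act on fibrinogen transcripts in human liver cells, had 445 (4.41%, interval 4.02 to 4.82%). These were also indistinguishable (ratio 1.01, interval 0.881 to 1.15). miR-432-5p followed with 383 reads (3.79%, interval 3.44 to 4.18%). miR-134-5p, a regulator of dendritic spines in rat neurons, had 322 reads (3.19%, interval 2.86 to 3.55%). The remaining members of the first 10 were miR-654-3p with 276 reads (2.73%, interval 2.43 to 3.07%), miR-889-3p with 244 (2.42%, interval 2.13 to 2.73%) and miR-382-5p with 240 (2.38%, interval 2.10 to 2.69%). From there the counts declined gradually. Among the 23 members with at least 100 reads there were 22 steps from one miRNA to the next in order, and in only 4 of them did the interval of the ratio lie above 1. All 4 were among the first 7 names.

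The other 13 members with at least 100 reads lay between 108 and 218 reads. They were miR-299-3p (218 reads), miR-136-3p (192), miR-381-3p (186), miR-495-3p (175), miR-154-5p (171), miR-299-5p (167), miR-410-3p (166), miR-127-3p (152), miR-369-5p (140), miR-493-5p (136), miR-411-3p (125), miR-543 (123) and miR-337-3p (108). The precision at this level is about that of miR-127-3p, whose exact Poisson interval ran from 128.8 to 178.2 reads.

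**Figure D2:**
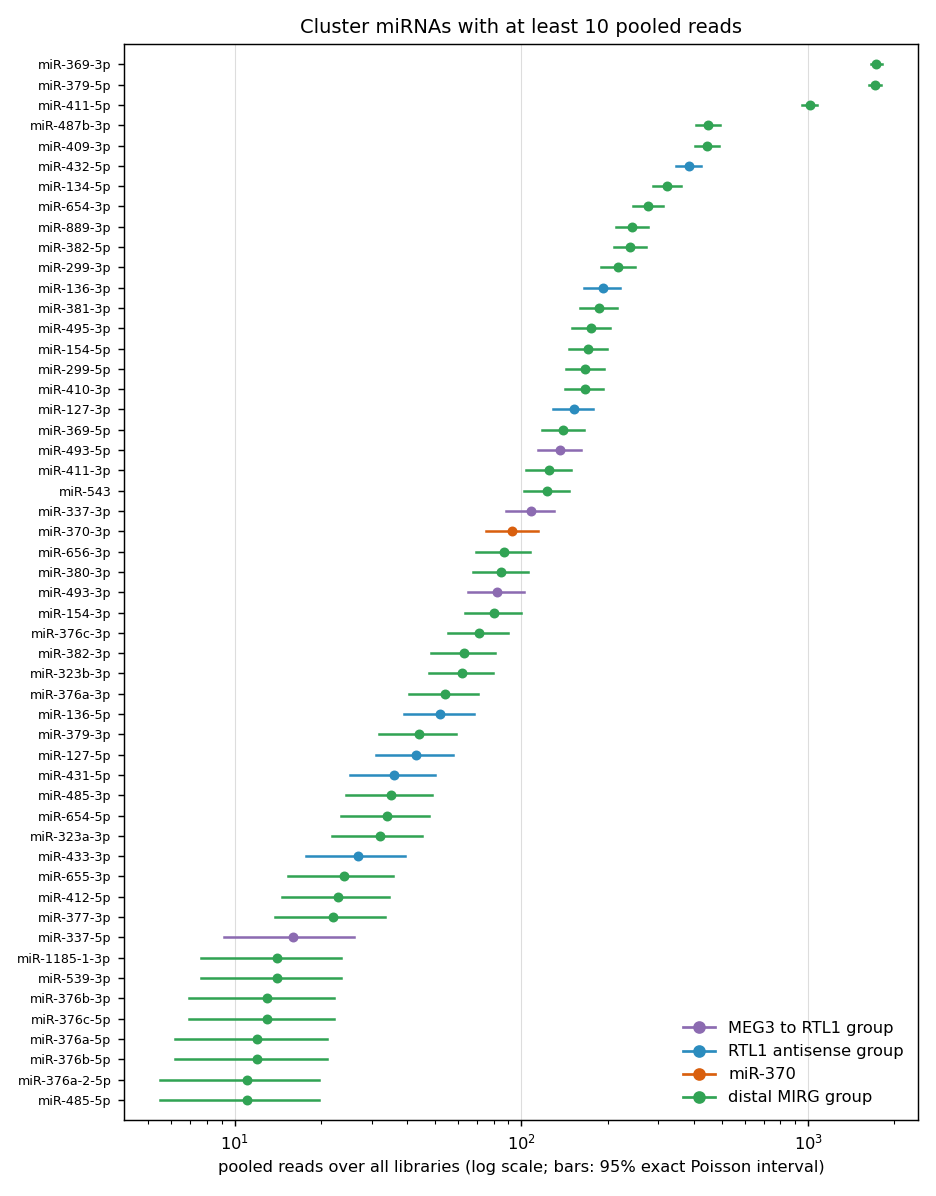
Pooled reads (horizontal, log scale) of the 52 cluster miRNAs with at least 10 reads, with 95% exact Poisson intervals and colored by place in the human locus. miR-369-3p, miR-379-5p and miR-411-5p stand above 1000 reads, and below them the intervals of neighbors in the order mostly overlap.

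Representation differed along the locus. In the human order the first hairpins lie between MEG3 and RTL1, the next are antisense to RTL1, miR-370 lies by itself among the snoRNAs, and a large distal group follows. The distal group had 8771 reads, or 86.8% of the cluster (interval 86.2 to 87.5%), with 58 of its 71 names detected. The RTL1 antisense group had 887 reads (8.78%, interval 8.24 to 9.35%) and 8 of 10 names detected. The MEG3 to RTL1 group had 343 reads (3.40%, interval 3.06 to 3.77%) and 5 of 6 names. The distal group also has the most hairpins, and per miRNA number the difference was smaller: 243.6 reads over its 36 numbers, 177.4 over the 5 antisense numbers and 85.8 over the 4 numbers between MEG3 and RTL1. Without the most abundant number of each group the values were 197.1, 125.5 and 41.7 reads.

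The RTL1 antisense miRNAs are fully complementary to the RTL1 transcript, and in mouse placenta they are known to lower RTL1. They differed widely from each other. miR-432-5p, with 383 reads, exceeded miR-127-3p by 2.52-fold (interval 2.08 to 3.06). It exceeded miR-431-5p, with 36 reads, by 10.6-fold (interval 7.55 to 15.4), and miR-433-3p, with 27 reads, by 14.2-fold (interval 9.60 to 21.8). miR-136-3p had 192 reads and miR-136-5p 52. Between MEG3 and RTL1, miR-493-5p (136 reads) and miR-337-3p (108 reads) did not differ beyond counting error (ratio 1.26, interval 0.971 to 1.64). miR-665 had 1 read (Poisson interval 0.0253 to 5.57) and miR-770-5p, whose hairpin lies in MEG3, had 0. miR-370-3p, which in human liver cells is known to act on the fatty acid oxidation gene CPT1A, had 93 reads (interval 75.1 to 113.9), and its other arm had 7.

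Hairpins that are neighbors in the distal group, and are thought to share a precursor transcript, differed by large factors. The 3 most abundant hairpins, mir-369, mir-379 and mir-411, lay toward the ends of the group. At the beginning stood mir-379 (1756 reads on both arms), mir-411 (1138) and mir-299 (385), and toward the end mir-409 (446) and mir-369 (1871). Between the ends, mir-487b had 449 reads, more than mir-299 and about as many as mir-409. Between mir-409 and mir-369 lies mir-412 with 24 reads, so that mir-369 exceeded it by 78.0-fold (interval 52.2 to 121.985). mir-410, directly after mir-369, had 168 reads, and mir-369 exceeded it by 11.1-fold (interval 9.51 to 13.1). A run of 3 neighbors near the beginning was almost empty, with 2 reads for mir-758, 5 for mir-329 and 4 for mir-494. The next in the order used, mir-543 and mir-495, had 123 and 177. miR-495-3p exceeded miR-494-3p by 43.8-fold (interval 16.8 to 162.4). Other low numbers had an abundant neighbor on 1 side. mir-487a had 4 reads beside mir-382 with 303, and mir-668 had 4 beside mir-134 with 323. mir-541 had 7 beside mir-409. On their other side the counts were lower, with 24 reads for mir-655, 46 for mir-485 and 22 for mir-377. Close levels of neighbors were seen as well, as for mir-382 and mir-134 (ratio 1.07, interval 0.909 to 1.25). Along the whole locus, not the distal group alone, the order used here gave 45 pairs of neighbors. Some of them join different position groups, as mir-370 and mir-379 do (17.6-fold). Of the 45 pairs 42 had reads on both, and 30 of these differed by over 2-fold and 17 by over 10-fold. This order left out mir-300, mir-1193 and mir-1197, which had 0 reads. It also put hairpins that share a number in 1 place, so some pairs may not be direct neighbors. The interval of the ratio held 1 in 7 pairs. The median ratio of the higher to the lower was 4.22.

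**Figure D3:**
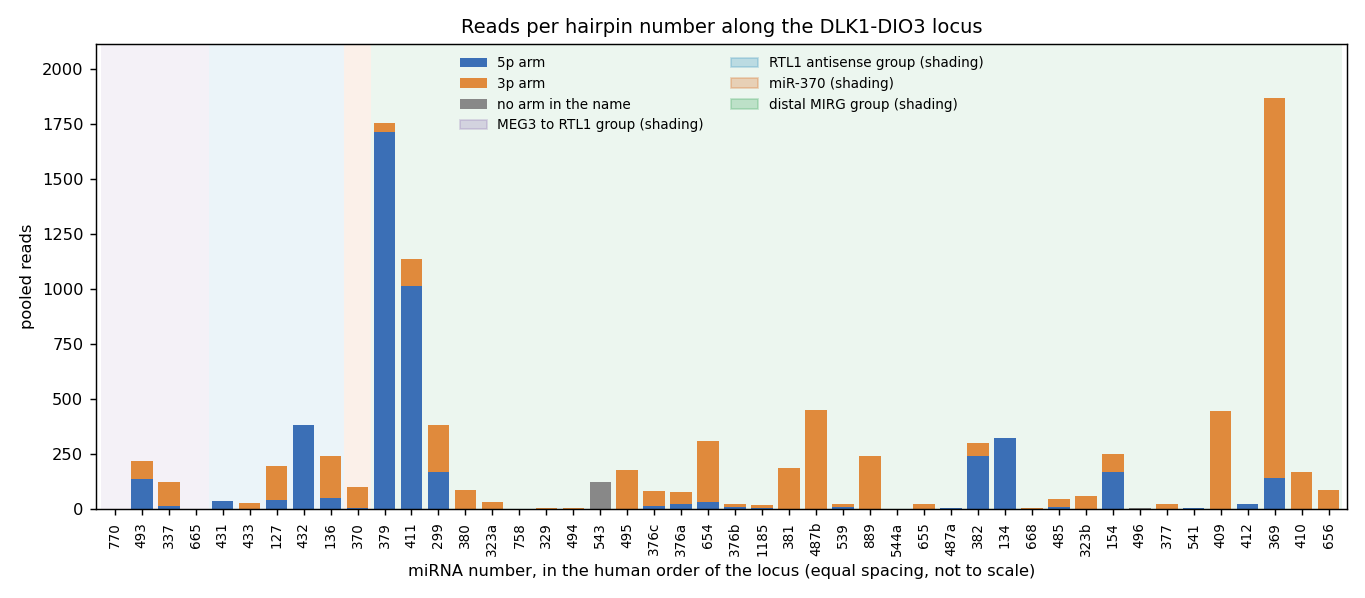
Pooled reads (vertical, linear) of each of the 46 miRNA numbers taken from the locus, split by arm, with the 4 position groups shaded. They stand in their human order (horizontal, equal spacing), without mir-300, mir-1193 and mir-1197. The highest bars are those of mir-379, mir-411 and mir-369 at either end of the distal group, and mir-758, mir-329 and mir-494 lie close to 0.

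Families with related names were also uneven. The miR-376 family, whose primary transcripts are known for adenosine-to-inosine editing in brain, was detected with all 7 names but at low levels. miR-376c-3p had 71 reads and miR-376a-3p 54 (ratio 1.31, interval 0.910 to 1.91). miR-376b-3p had 13 reads, and miR-376a-3p exceeded it by 4.15-fold (interval 2.24 to 8.30). The other names of the family had 11 to 13 reads. The 2 precursors of miR-376a gave the same 54 reads for the 3p arm, and with both rows added the share of the family in the cluster was 2.36% instead of 1.84%. In the miR-487 pair the b member was high and the a member almost absent. miR-487b-3p had 448 reads, miR-487a-5p had 4 and miR-487a-3p had 0. In the miR-323 pair both were low, with 62 reads for miR-323b-3p and 32 for miR-323a-3p (ratio 1.94, interval 1.25 to 3.07). Because such miRNAs are close in sequence, a read may be counted for the wrong one, and their separate values are uncertain.

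The cluster's hairpins had a mixed use of arms. There were 20 hairpins with at least 100 reads and exactly 1 mature name per arm; hairpins with more names were left out. Most reads came from the 3p arm in 13 of them (65.0%) and from the 5p arm in 7. Among 151 hairpins outside the cluster chosen in the same way, the 3p arm was the major one in 57 (37.7%), the 5p arm in 91, and 3 were undecided by the Wilson interval. The major arm was also less dominant. Its median share was 92.8% in the cluster and 99.3% in the other hairpins, and it was under 90% in 9 of 20 cluster hairpins (45.0%), compared to 25 of 151 others (16.6%). The gap was smaller when 20 reads sufficed. The median was then 95.8% in the cluster and 99.1% in the others, and 42.9% and 21.3% of hairpins were under 90%. These shares are a description without a test, since hairpins can share mature names and are not independent.

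The most abundant hairpins were among those with reads on both arms. mir-369 gave 92.5% of its reads from the 3p arm (interval 91.2 to 93.6%), mir-379 gave 97.5% from the 5p arm (interval 96.7 to 98.1%) and mir-411 gave 89.0% from the 5p arm (interval 87.1 to 90.7%). mir-299 was closest to balance, as miR-299-5p had 167 reads and miR-299-3p had 218, which put the 3p share at 56.6% (interval 51.6 to 61.5%). The 5p share was 62.4% in mir-493 (interval 55.8 to 68.5%), 68.1% in mir-154 (interval 62.1 to 73.6%) and 79.2% in mir-382 (interval 74.3 to 83.4%). In mir-136 and mir-127 the 3p arm held 78.7% (interval 73.1 to 83.4%) and 77.9% (interval 71.6 to 83.2%). At the other extreme, mir-889 (244 reads) and mir-381 (186 reads) had 0 reads on the 5p arm, which allows it a share of up to 1.23% and 1.61%, taking 3 reads as the limit for a count of 0 (the upper ends of their Wilson intervals, as plotted, are 1.55% and 2.02%). mir-134 and mir-432 gave over 99% from the 5p arm, and mir-487b and mir-409 over 99% from the 3p arm. Of the remaining hairpins, the 3p arm held 98.9% in mir-495, 98.8% in mir-410, 93.0% in mir-370, 89.0% in mir-654 and 87.1% in mir-337.

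**Figure D4:**
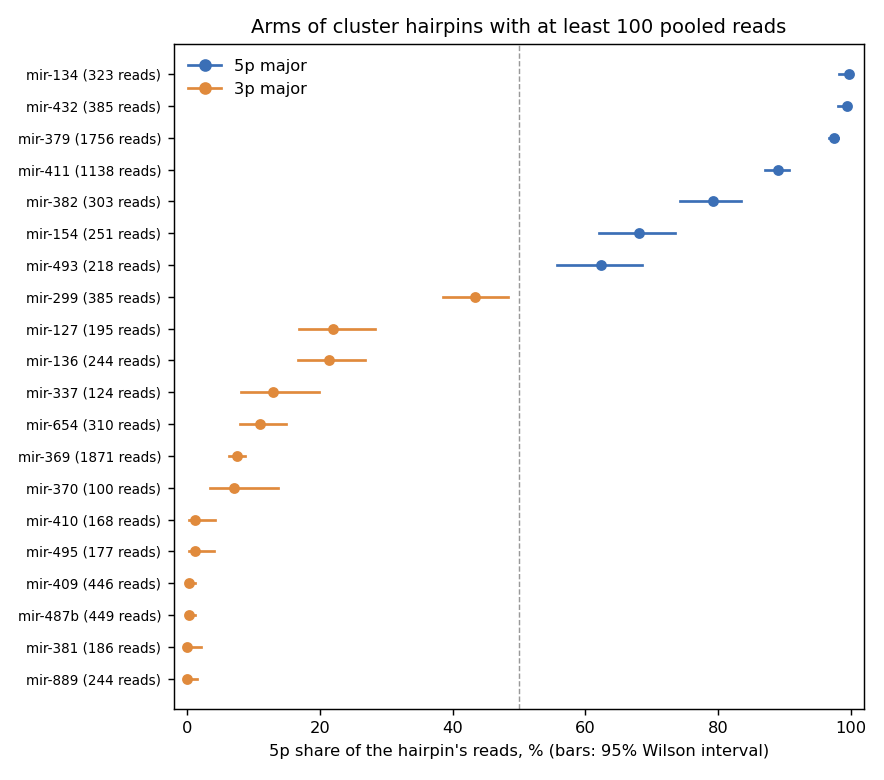
Share of reads from the 5p arm (horizontal, percent) in the 20 cluster hairpins with at least 100 pooled reads, with 95% Wilson intervals and the 50% line. The 7 hairpins led by the 5p arm stand above the 13 led by the 3p arm, and mir-299 lies nearest to 50%.

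Of the 17 members with 0 reads, there were 12 names of 5p arms, 3 of 3p arms and 2 without an arm in the name, and for 14 of the 17 another name of the same number had reads, although in miR-758, miR-494, miR-668 and miR-487a these were only 2 to 4. The 5p names were those of miR-323a, miR-323b, miR-377, miR-381, miR-433, miR-494, miR-655, miR-656, miR-668, miR-758, miR-770 and miR-889, and the 3p names were miR-431-3p, miR-487a-3p and miR-1185-2-3p. miR-544a and miR-544b had no reads. miR-544b carries a cluster number but is annotated outside the locus in human. With 3 reads as the limit, each of these names could still make up to 0.000147% of the pool. The cluster miRNAs miR-300, miR-1193 and miR-1197, whose numbers were not among the 47, also had 0 reads each.

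Compared to other miRNA groups of the same pool, the cluster was set beside the polycistronic miR-17-92 cluster and the other imprinted cluster of primates, that of chromosome 19, which is best known from placenta. The DLK1-DIO3 cluster had 10101 reads and the chromosome 19 cluster 793 over 61 names, a ratio of 12.7 (interval 11.8 to 13.7). The chromosome 19 cluster had 39 of its 61 names detected (63.9%), but only 3 with at least 100 reads. Its miR-517a-3p and miR-517b-3p are listed with the same 111 reads. Likewise miR-518e-5p, miR-519a-5p, miR-519b-5p, miR-519c-5p, miR-522-5p and miR-523-5p are all listed with 14. If such names share reads, the 793 reads and 39 detected names are too high and the ratio of 12.7 too low. A ratio with such counts taken once was not computed. The 14 names of the miR-17-92 cluster had 16734 reads, so that the ratio of the DLK1-DIO3 cluster to it was 0.604 (interval 0.589 to 0.619), with 11 of the 14 names detected (78.6%). This ratio depends on names that cannot be assigned. miR-92a-3p (6940 reads) and miR-19b-3p (1762 reads) are also listed at precursors outside miR-17-92, and without them the ratio was 1.26 (interval 1.22 to 1.30).

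Levels of miRNAs known from particular cell types were set beside those of the cluster, because bulk tissue holds several cell types and fewer cells of a type cannot be told apart from less RNA per cell. The cluster's 10101 reads stood against 96300 reads of 15 mesenchymal and stellate cell names, all detected (ratio 0.105), led by miR-143-3p (42313 reads). In this list miR-199b-3p has the same count as miR-199a-3p, and with that count taken once the ratio was 0.136 (interval 0.134 to 0.139). The cluster's reads stood against 3540 reads of 8 leukocyte names (ratio 2.85, interval 2.75 to 2.97), led by miR-142-3p (1242 reads), with 7 of the 8 detected. These names are of miR-142, miR-150, miR-155 and miR-223, and the ratio depends on that choice. With miR-146a-5p (1746 reads) and miR-146b-5p (969 reads) in the list it would be lower, and such a ratio was not computed. Names known from neurons and endocrine cells had 1630 reads (ratio 6.20, interval 5.88 to 6.53), led by miR-7-5p (642 reads) and miR-375 (497 reads), and 10 of the 18 were detected. Among those at 0 reads were both arms of miR-124, the most typical neuronal miRNA. The hepatocyte list had reads for all 10 names, 1017919 in all. From which cell type the cluster's reads came was not tested.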

How the data were processed

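Per the labels, small RNA libraries (Illumina TruSeq) were prepared from total RNA of frozen liver. Cutadapt 1.10 and Bowtie appear in the submitters' processing notes, and miRDeep2 in the study's methods. Genome build and miRNA release: not given in the sources used here. The authors deposited raw counts of reads per human-named mature miRNA and precursor (2948 rows). How far vervet miRNAs differ from the human sequences was not tested. A block of normalized values was not used, and 20 library columns (10 raw, 10 normalized) matching no sample were not analysed. The depth of each library is therefore not given.

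Per name, the precursor row with the highest total was kept. Of the 90 members 4 stood on 2 rows. Shares have 95% Wilson intervals, counts exact Poisson intervals and ratios of 2 counts exact binomial intervals. Intervals were not adjusted for the number of ratios. They were checked only on reads drawn at random from the observed shares. That check covers counting error alone and cannot show spread between animals or libraries. Members, position groups and lists were chosen with earlier results of these data known. Named were members with at least 100 reads, hairpins with both arms and at least 100 reads, leading members of each list and members with 0 reads. The pairs set as ratios, and other members with few reads that are named, were chosen after their values were seen. Planned comparisons of HFr against chow were not run. Alternatives were other ways of counting rows, names and members and other minima. Computations used Python 3.11.15, pandas 2.3.3 and scipy 1.17.1.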

Additional observations from a re-analysis of the deposited data

How the results depend on the processing

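The share of the cluster in the pool was 0.494%. It was 0.381% when all precursor rows of a name were added, since the total then comes to 2669761 reads, and 0.901% when miR-122-5p was left out of the denominator. Counting names with identical counts once kept it within its interval. Adding miR-300, miR-1193 and miR-1197, or leaving out miR-544b, could not change it, as these names had 0 reads. With all rows added the shares of all 23 members with at least 100 reads were lower by the same factor of 0.765. The number of detected names was 73, and 52 with at least 10 reads. Of 30 alternative values for position groups, families, concentration and arms, 28 stayed within the Wilson interval of a share or within 1.5 times a count. Some of these could not move. Counting names with identical counts once removed 0 members, so it left every share within the cluster unchanged. Hairpins led by the 5p arm numbered 9 instead of 7 when 20 reads sufficed. The values beyond these limits were the miR-376 family (2.36% of the cluster with all rows added) and the hairpins led by the 3p arm, which numbered 24 when 20 reads sufficed. More hairpins were then counted, and as a share the 3p-led ones were 68.6% of 35, compared to 65.0% of 20. No paired analysis was possible because no column could be tied to an animal. The test of diet, another normalization, a filter on low counts and leaving out single libraries were therefore not run, so the weight of any 1 library in these values was not tested. The ratios of the cluster to the miR-17-92 and mesenchymal lists were also computed in other ways, chosen after seeing the data, and stand beside their values.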

Other observations

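A further 15 hairpins of the cluster had 20 to 99 reads and a name on each arm. The 3p arm was the major one in 11 of them and the 5p arm in 2, mir-431 (36 and 0 reads on the 5p and 3p arm) and mir-412 (23 and 1 reads). The Wilson interval left 2 undecided, mir-376b (12 and 13 reads) and mir-539 (9 and 14 reads). In 6 of the 15, mir-323a, mir-323b, mir-377, mir-433, mir-655 and mir-656, the 5p arm had 0 reads, and at these depths such a count still allows it a share of up to 3.45% in mir-656 and up to 13.6% in mir-377. No explanation of these values was tested.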
